A study of Mus musculus with 16 samples.

Results

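The 36 genes described here act in the first division of meiosis, from the entry into prophase to the repair of the programmed DNA breaks. They are the rows of a table of 21924 genes whose symbol stands on a list of meiotic prophase genes. All 36 had a row and all passed the filter on low values. Values were compared across 16 RNA-seq libraries of mouse germline stem (GS) cells, lines of spermatogonial stem cells from testis, kept dividing by the growth factors GDNF and FGF2 over a fibroblast feeder layer from mouse embryos. The libraries form 8 groups of 2. C57BL/6 cells labelled Top1mt KO and C57BL/6 wild type cells were kept at 1% oxygen. A line of mixed 129 x C57BL/6 origin (below, the Hif1a line) was labelled Hif1a KO or Hif1a wild-type, with libraries of each kind at 1% and at 20% oxygen. The last pair of groups is DBA/2 wild type at 1% and at 20% oxygen. Top1mt codes for the topoisomerase of mitochondrial DNA, and Hif1a for the subunit of the hypoxia-inducible factor that oxygen makes unstable. Cells labelled Hif1a KO had received AxCANCre, an adenovirus with Cre, on the day the low oxygen began, so these cultures were treated acutely. The labels do not say if wild type cells got any virus. The series text gives 2 days at 1% oxygen, while the library names of the Hif1a line at 1% oxygen carry 6d and a B that the names at 20% oxygen lack, so the 1% and 20% libraries of that line may also differ in time and sequencing set, which cannot be told apart from oxygen. Nothing in the labels says that the 2 libraries of a group came from separate cultures, so p-values measure the spread between these libraries, which may be technical.

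Meiosis begins when a differentiating spermatogonium replicates its DNA and builds a meiotic form of the chromosome. Meiotic cohesins (REC8, STAG3, SMC1B, RAD21L) hold the loops of each chromosome to an axis, and the axis proteins SYCP2, SYCP3 and the HORMADs recruit the machinery that lets SPO11 cut the DNA. The cuts are repaired on the homologous chromosome by DMC1 and its partners, the homologs are zipped together by the synaptonemal complex, and a few repair sites mature into crossovers. In spermatogonia many of these genes are held down by a repressor complex that contains E2F6 and the MGA and MAX pair (PRC1.6), and STRA8 with MEIOSIN switches them on. GS cells divide by mitosis and renew themselves under GDNF, so transcripts of these genes are measured here outside a meiotic cell.

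Promoter windows of 250 bases before the gene start were taken from RefSeq (build GRCm38.p6), which held an entry for 30 of the 36 genes. Some windows lie within the gene by the GENCODE coordinates used elsewhere here, among them those of Mei1, Rec114, Hsf2bp, Meioc and Msh4. Of these, Hsf2bp and Meioc are counted for the E2F6-type letters and Rec114 for the E-box. The E2F6-type letters GCGGGAA stood, on either strand, in a window of 11 of the 30 genes (36.7%), against 3.82% of all 32851 windows of this length. The E-box CACGTG, the letters that MGA and MAX bind, stood in 7 (23.3%), against 6.02% of all windows. The STRA8-type letters CNCCTCAG stood in 5 (16.7%), against 6.42%. The core of the hypoxia response element (ACGTG or GCGTG), whose first form lies within the E-box, stood in 17 (56.7%), against 38.6%. A gene counted if any of its windows held the letters, while the shares of all windows count each window, so the percentages are unlike measures. These are matches of letters and not sites of binding. A window each of 4 genes (for Hormad1 and Prdm9, 1 of 2 windows) is shown here because these genes rose at 1% oxygen in DBA/2 cells, on the strand of the gene, with matches to the first 3 of these motifs, on either strand, in capitals. The Hormad1 window (chr3:95559427-95559676, plus strand) holds an E2F-type match and 2 E-boxes, and the Sycp3 window (chr10:88459337-88459586, plus strand) the same. The Smc1b window (chr15:85131958-85132207, minus strand) holds an E2F-type match alone. In the Prdm9 window (chr17:15564355-15564604, minus strand) an E2F-type and a STRA8-type match share 1 base. Windows of other genes with E2F-type matches are not shown, among them Meioc and Syce2, which rose in DBA/2 cells, and Msh5, which fell.
Hormad1: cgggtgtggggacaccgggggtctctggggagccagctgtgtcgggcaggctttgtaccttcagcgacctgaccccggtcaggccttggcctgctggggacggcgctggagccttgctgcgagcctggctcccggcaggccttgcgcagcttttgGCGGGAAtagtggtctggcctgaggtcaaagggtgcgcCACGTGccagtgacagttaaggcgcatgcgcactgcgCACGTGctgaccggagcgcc
Sycp3: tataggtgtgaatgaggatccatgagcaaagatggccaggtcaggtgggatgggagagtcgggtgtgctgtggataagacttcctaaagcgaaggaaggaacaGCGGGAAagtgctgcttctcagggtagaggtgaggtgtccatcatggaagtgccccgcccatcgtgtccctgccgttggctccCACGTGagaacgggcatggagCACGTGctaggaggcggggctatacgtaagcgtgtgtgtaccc
Smc1b: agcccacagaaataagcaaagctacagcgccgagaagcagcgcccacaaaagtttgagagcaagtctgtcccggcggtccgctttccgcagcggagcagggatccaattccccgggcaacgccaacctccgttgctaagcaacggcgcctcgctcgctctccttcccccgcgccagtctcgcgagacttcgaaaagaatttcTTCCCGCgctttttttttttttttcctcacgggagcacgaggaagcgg
Prdm9: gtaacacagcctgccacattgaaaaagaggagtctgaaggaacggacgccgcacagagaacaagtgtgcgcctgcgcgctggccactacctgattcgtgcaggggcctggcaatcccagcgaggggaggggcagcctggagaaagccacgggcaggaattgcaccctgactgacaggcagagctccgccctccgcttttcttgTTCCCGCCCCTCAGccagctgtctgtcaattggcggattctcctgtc

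Reads per library ranged from 11942104 to 25659895, so that 3 reads, the limit a count of 0 allows by counting error, stand for 0.117 to 0.251 CPM. Top1mt was measured at 9.99 and 11 CPM in the libraries labelled Top1mt KO, against 32.8 and 34.8 CPM in wild type. Hif1a was higher, not lower, in the libraries labelled Hif1a KO, at 618 and 593 CPM against 251 and 251 CPM in wild type at 1% oxygen, and at 139 and 142 CPM against 116 and 118 CPM at 20%. The files give no reads by exon, so the level of Hif1a goes against the label and does not check the deleted part, and these libraries are called by their label throughout. The 12 fibroblast feeder markers summed to 34534 ± 562 CPM in the libraries labelled Top1mt KO and 18457 ± 92.5 CPM in their wild type. In the Hif1a line they summed to 51812 ± 1021 CPM in labelled KO at 1%, 14092 ± 1721 CPM in labelled KO at 20%, 26836 ± 4615 CPM in wild type at 1% and 9413 ± 543 CPM in wild type at 20%. DBA/2 cells held 5756 ± 435 CPM at 1% and 6298 ± 1041 CPM at 20% (mean ± SD, n = 2 here and below). The 12 germ cell identity genes, among them Ddx4 and Dazl, summed to 2189 ± 18 CPM in labelled Top1mt KO and 3262 ± 26.3 CPM in wild type, lower where the feeder sum was higher. In the Hif1a line they summed to 1689 ± 73.9 CPM in labelled KO at 1%, 3371 ± 100.1 CPM in labelled KO at 20%, 3550.5 ± 122 CPM in wild type at 1% and 3889 ± 23.3 CPM in wild type at 20%. In DBA/2 cells they summed to 4137 ± 24.4 CPM at 1% and 4818 ± 119.7 CPM at 20%, and there both sums were lower at 1%. All 12 had reads in every group. Markers of spermatids (Prm1, Prm2, Tnp1, Tnp2, Acr, Acrv1, Tssk6, Catsper1) summed to 1.31 to 4.15 CPM in the group means, and of these 8 only Tnp1 passed the filter on low values (CPM of at least 1 in 2 libraries). Sertoli markers summed to 23.2 to 53.9 CPM and leukocyte markers to 8.53 to 17.7 CPM. In bulk RNA, fewer germ cells and less RNA of a gene per germ cell cannot be told apart, and where the sums differ between groups this holds for each value below.

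**Figure D1:**
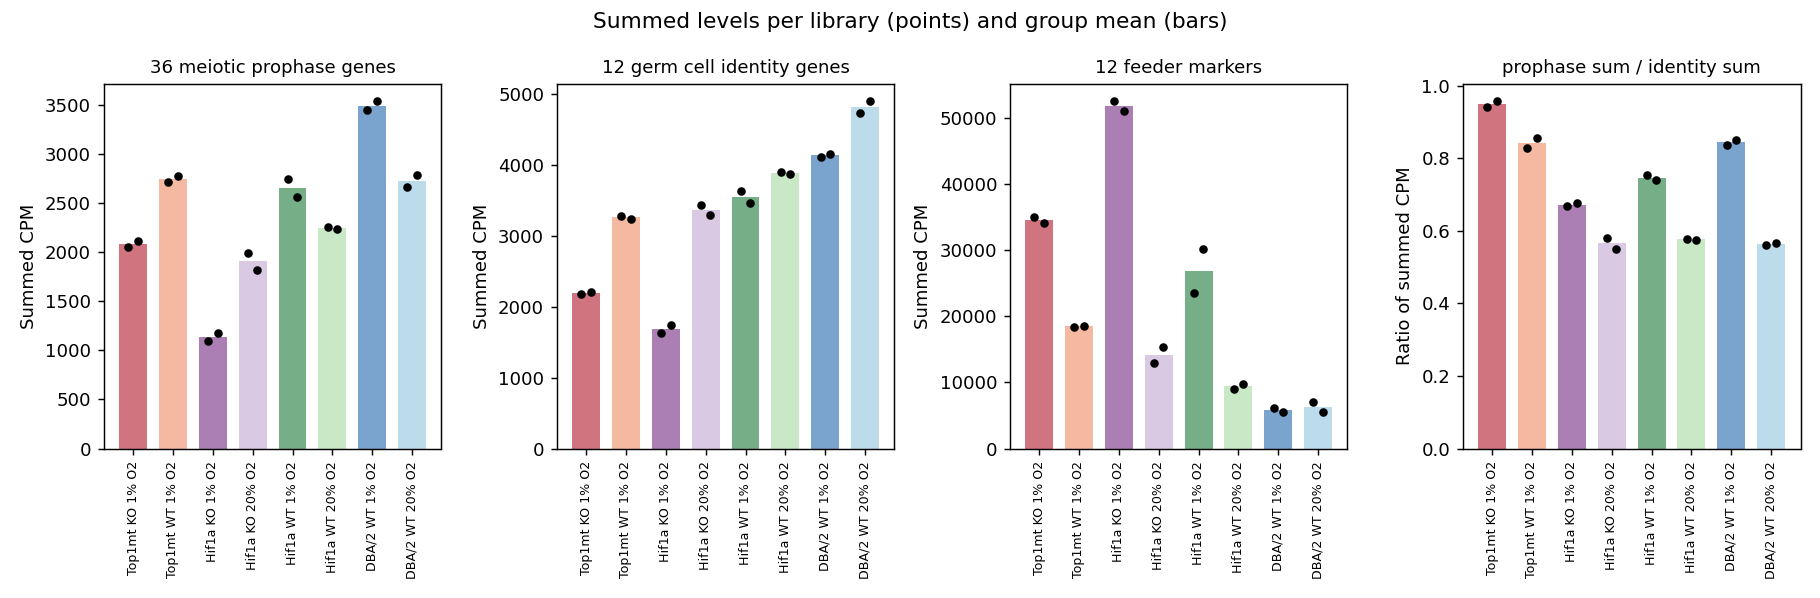
Summed CPM per library (points) and mean of 2 libraries (bars) of the 36 meiotic prophase genes, the 12 germ cell identity genes and the 12 feeder markers, and the ratio of the first sum to the second. The prophase sum is lowest, and the feeder sum highest, in the libraries labelled Hif1a KO at 1% oxygen, while the ratio is higher at 1% than at 20% oxygen in each of the lines measured at both.

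The prophase genes were present in all groups and covered a wide range of levels. Per kilobase of exon, the cohesin subunit Stag3 had the highest mean over the libraries at 67.8 RPKM, followed by the central element protein Syce2 at 58.7 RPKM, the axis protein Sycp3 at 57.8 RPKM, the cohesin Smc1b at 47.6 RPKM, the intercellular bridge gene Tex14 at 47.1 RPKM and Tex15 at 43.8 RPKM. Sycp3 led in DBA/2 cells, with 116 ± 8.09 RPKM at 1% oxygen and 78.0 RPKM at 20%, and Stag3 led in wild type cells of the Hif1a line, with 89.1 ± 2.92 RPKM at 1% and 61.9 ± 0.293 RPKM at 20%. At the other end stood Prdm9, the histone methyltransferase that places the breaks, at 1.11 RPKM, and the partners Meiob and Spata22, single-strand binding proteins of the repair step, at 0.57 and 0.50 RPKM. Meiob reached 1 CPM in 7 libraries (the 4 of DBA/2 and 3 of the Top1mt pair) and Spata22 in 4, those of DBA/2, while the other 34 genes did so in all 16. Spata22 shares 16304 bases with an annotated gene (Gm49340) on the same strand, so its reads are uncertain. A further 6 genes (Sycp3, Syce2, Tex12, Rec114, Psmc3ip and Hsf2bp) overlap a gene on the opposite strand, and the strand setting used for counting is not stated.

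**Figure D2:**
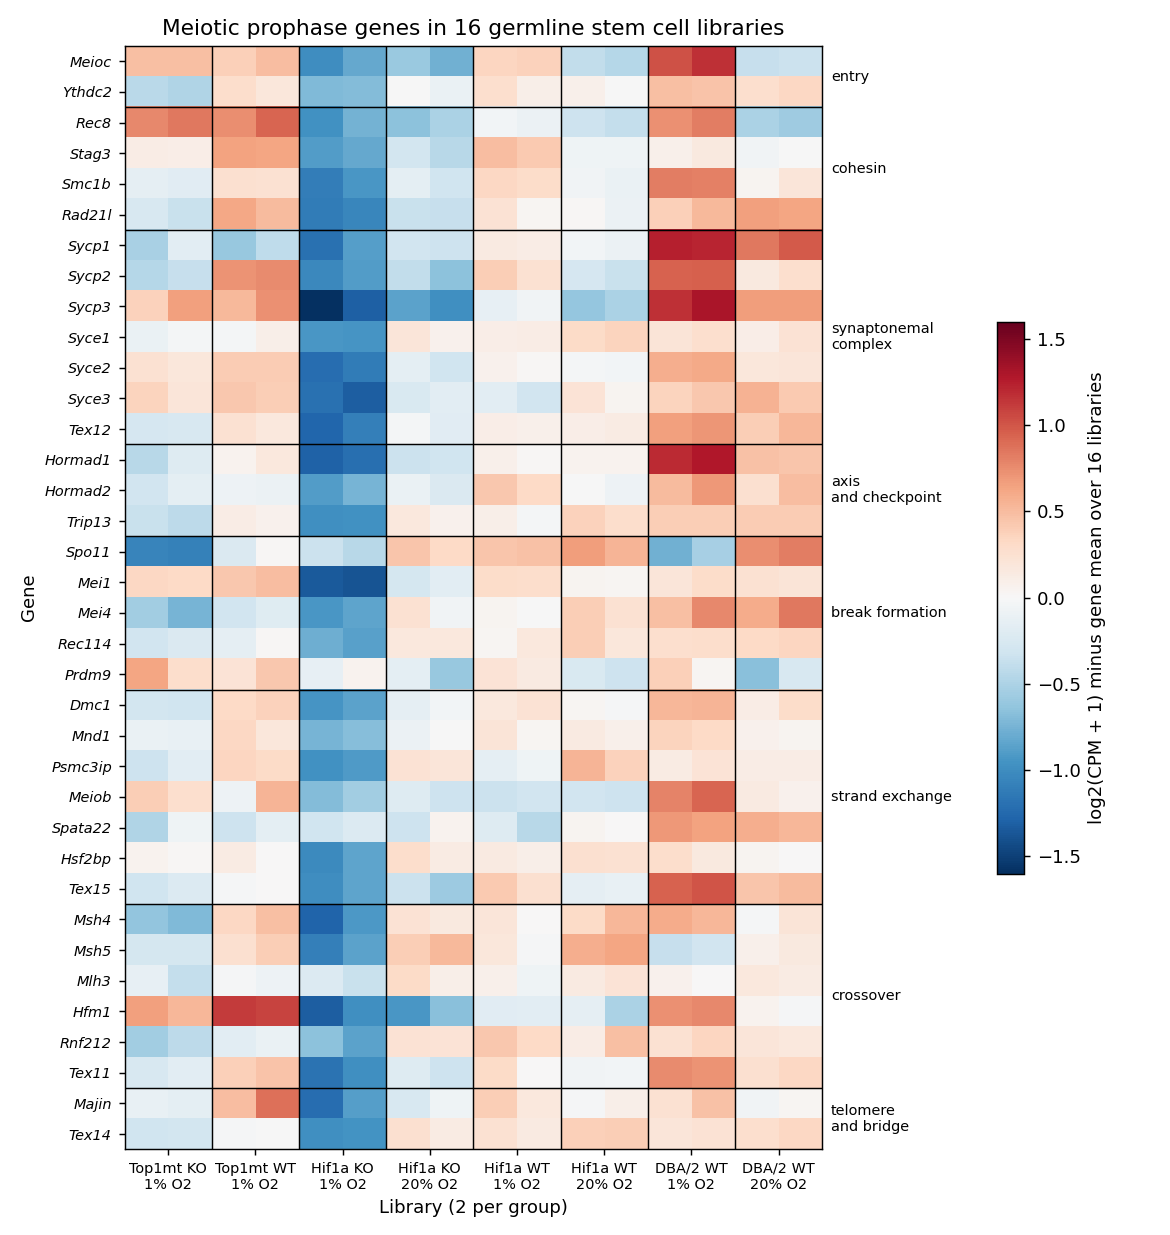
Heat map of the 36 genes in the 16 libraries, as log2(CPM + 1) minus the mean of the gene over all libraries, with genes in rows ordered by role and groups in columns of 2 libraries. The libraries labelled Hif1a KO at 1% oxygen are low for nearly every gene, and DBA/2 libraries at 1% are high for Meioc, Sycp1, Sycp3, Hormad1 and Tex15.

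The first question was what 1% oxygen did to these genes in wild type cells. In DBA/2 cells 19 of the 36 rose and 2 fell at an adjusted p of 0.05 (limma on log2(CPM + 1), Benjamini-Hochberg over all 14841 genes tested), where 31.8% of all genes rose and 25.5% fell. Their median log2 fold change of CPM + 1 was 0.22, against 0.04 over all genes. The summed level was 3490.1 ± 66.1 CPM at 1% and 2719.5 ± 88.5 CPM at 20%. Without the first DBA/2 library at 20% oxygen fewer rose, and the median was 0.18, against 0.05 over all genes. Feeder markers did not rise here (0 of 12 rose and 8 fell), and of the germ cell identity genes 3 rose and 7 fell. In the Hif1a line, wild type cells showed 12 rises and 7 falls, where 18.4% of all genes rose and 34.6% fell. The median was 0.08, against -0.09 over all genes. With median-of-ratios scaling the count was 16 rises and 4 falls, and 24.5% of all genes rose and 24.9% fell. The feeder markers moved with oxygen in that line (9 of 12 rose and 2 fell), and their part in the result was not tested. The same 10 genes rose in both lines, 52.6% of those that rose in DBA/2 cells and 83.3% of those that rose in the Hif1a line. Over all genes 1402 rose in both, 29.7% of those that rose in DBA/2 cells and 51.2% of those that rose in the Hif1a line. The 10 are Meioc, Rec8, Stag3, Smc1b, Sycp2, Sycp3, Prdm9, Dmc1, Tex15 and Tex11, of which Stag3 and Prdm9 lost the call in DBA/2 cells and Prdm9, Dmc1 and Tex11 in the Hif1a line under some alternative. The response itself, Hif1a line minus DBA/2, was higher for 3 genes and lower for 12, where 15.1% of all genes were higher and 30.9% lower. With median-of-ratios scaling 4 were higher and 7 lower, against 21.1% and 19.9% of all genes. By promoter letters, the 11 genes with GCGGGAA had a median of 0.40 in DBA/2 cells (6 higher, 1 lower), and the 19 with a window but without these letters 0.11 (8 higher, 0 lower). In the Hif1a line the medians were 0.07 with the letters (4 higher, 2 lower) and 0.01 without (6 higher, 5 lower), and in labelled Hif1a KO they were -0.93 with and -0.72 without. With and without the hypoxia response core the medians were 0.19 and 0.22 in DBA/2 cells and -0.03 and 0.19 in the Hif1a line. For the E-box the medians were 0.32 and 0.12 in DBA/2 cells and 0.08 and 0.01 in the Hif1a line. For the STRA8-type letters the medians were 0.40 and 0.15, and 0.14 and -0.01. In labelled Hif1a KO medians were -0.93 and -0.78 (core), -0.92 and -0.80 (E-box) and -0.65 and -0.92 (STRA8-type). No difference by letters was tested.

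Of the genes of entry, Meioc had the largest rise of any of the 36 in both lines. MEIOC forms a complex with the RNA helicase YTHDC2 that clears mitotic transcripts and keeps germ cells in prophase. Meioc (chr11:102663716-102682237, plus strand, mm10) was measured at 65.9 and 72.7 CPM at 1% and 24.5 and 25.0 CPM at 20% in DBA/2 cells (log2 fold change 1.45 ± 0.08, adjusted p = 1.5e-11). In the Hif1a line wild type had 40.9 and 41.4 CPM at 1% and 24.0 and 23.0 CPM at 20% (0.78 ± 0.08, adjusted p = 1.1e-07). The values of the lines lay close at 20% and apart at 1%, and the response of the Hif1a line minus that of DBA/2 cells was -0.66 ± 0.11 (adjusted p = 9.1e-05). Ythdc2 was at 59.6 and 58.5 CPM at 1% and 51.3 and 53.5 CPM at 20% in DBA/2 cells, a rise of 0.17 ± 0.07 (adjusted p = 0.042) that missed the threshold under median-of-ratios scaling (0.13) and without any 1 of the 4 DBA/2 libraries (0.14 to 0.20). In the Hif1a line its adjusted p was 0.099, and with median-of-ratios scaling it was called higher.

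Of the 4 meiotic cohesin genes, 3 rose in both lines. Rec8 (chr14:55618037-55625395, plus strand), the kleisin that replaces the mitotic RAD21 and holds sister chromatids together, had 58.2 and 61.6 CPM at 1% and 24.1 and 23.0 CPM at 20% in DBA/2 cells (1.31 ± 0.08, adjusted p = 1.1e-10). Wild type of the Hif1a line had 33.5 and 32.3 CPM at 1% and 27.2 and 26.3 CPM at 20% (0.29 ± 0.08, adjusted p = 0.0059). The difference between these responses was -1.02 ± 0.12 (adjusted p = 1.0e-06). Stag3, a subunit of all meiotic cohesins, had the greater rise in the Hif1a line (difference 0.38 ± 0.07, adjusted p = 2.6e-04): its rise was 0.53 ± 0.05 in the Hif1a line (523 and 499 CPM at 1%, 356 and 353 CPM at 20%) and 0.15 ± 0.05 in DBA/2 cells (392 and 414 CPM at 1%, 358 and 369 CPM at 20%). Smc1b, the meiotic SMC subunit, rose by 0.69 ± 0.06 in DBA/2 cells and 0.39 ± 0.06 in the Hif1a line. Stag3 was not called in DBA/2 cells with median-of-ratios scaling (0.11), without the second library at 1% (0.11) or without the first at 20% (0.13). Rad21l, the other meiotic kleisin, was called in neither line on the CPM scale, and with median-of-ratios scaling it was lower in DBA/2 cells and higher in the Hif1a line.

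Among the genes of the synaptonemal complex, those of the lateral element rose in both lines, and of the 4 central element genes Syce2 rose in DBA/2 cells. Sycp2 and Sycp3 code for the lateral element, the axis seen along each chromosome. Sycp2 rose by 0.73 ± 0.07 in DBA/2 cells and by 0.64 ± 0.07 in the Hif1a line. Sycp3 was measured at 139.9 and 154 CPM at 1% and 98.6 and 98.6 CPM at 20% in DBA/2 cells (0.57 ± 0.10, adjusted p = 4.8e-05), and at 56.2 and 59.2 CPM at 1% and 39.8 and 43.2 CPM at 20% in the Hif1a line (0.47 ± 0.10, adjusted p = 4.4e-04). In both lines each library at 1% oxygen was above each at 20%. Sycp1, the transverse filament, rose in DBA/2 cells (0.32 ± 0.10; not called without the first library at 1%, 0.30, or the first at 20%, 0.25) and had 0.20 ± 0.10 in the Hif1a line (adjusted p = 0.088), and the difference between the lines was not called (adjusted p = 0.51). The rise of Syce2 was 0.40 ± 0.05, Syce1 and Syce3 fell in the Hif1a line (by 0.22 ± 0.06 and 0.37 ± 0.10), and Tex12 was called in neither. The call of Syce1 was lost with median-of-ratios scaling (-0.14) and without the second library at 20% (-0.20), and that of Syce3 by DESeq2 (-0.31) and without the first library at 20% (-0.28).

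Hormad1 (chr3:95559677-95587671, plus strand) responded in DBA/2 cells and not, by the test, in the Hif1a line. HORMAD1 binds unsynapsed axes, and TRIP13 is the ATPase that strips it off after synapsis. Hormad1 had 52.0 and 55.1 CPM at 1% and 30.9 and 30.5 CPM at 20% in DBA/2 cells (0.78 ± 0.08, adjusted p = 2.0e-07). Hif1a line wild type had 23.4 and 22.3 CPM at 1% and 23.0 and 23.0 CPM at 20%, and the groups overlapped. The difference between the responses was -0.79 ± 0.12 (adjusted p = 2.7e-05). Hormad2 rose in the Hif1a line (0.41 ± 0.10) and Trip13 fell there (by 0.29 ± 0.06).

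Break formation held both the largest fall and a rise. Spo11 (chr2:172977700-172993576, plus strand), the topoisomerase-like enzyme that cuts the DNA, had 3.84 and 4.72 CPM at 1% and 12.8 and 13.6 CPM at 20% in DBA/2 cells (log2 fold change -1.44 ± 0.12, adjusted p = 6.4e-09). Wild type of the Hif1a line had 10.3 and 10.4 CPM at 1% and 12.2 and 11.1 CPM at 20% (adjusted p = 0.29). Its response differed between the lines by 1.28 ± 0.17, the largest difference among the 36 genes (adjusted p = 6.3e-06). Prdm9 had 6.29 and 4.72 CPM at 1% and 2.51 and 3.71 CPM at 20% in DBA/2 cells (0.67 ± 0.18, adjusted p = 0.0032), and 5.54 and 5.21 CPM at 1% and 3.74 and 3.44 CPM at 20% in the Hif1a line (0.47 ± 0.18, adjusted p = 0.029). The libraries did not overlap in either line, but the call was lost without the first DBA/2 library at 1% (0.49) or at 20% (0.45) and without any 1 of the 4 libraries of the Hif1a line (0.43 to 0.52). Mei1 rose in the Hif1a line (0.25 ± 0.07), and Mei4 and Rec114, partners of MEI1 on the axis, were called in neither.

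The recombinase Dmc1 rose in both lines, by 0.33 ± 0.07 and 0.19 ± 0.07 in DBA/2 and Hif1a line cells, but the call in the Hif1a line was lost without the second library at 1% (0.17), the first at 20% (0.22) or the second at 20% (0.17). Tex15 also rose in both. It is needed to load the recombinases, and had 756 and 784 CPM at 1% and 535 and 558 CPM at 20% in DBA/2 cells (0.49 ± 0.07, adjusted p = 4.6e-06) and a rise of 0.47 ± 0.07 in the Hif1a line. Meiob rose in DBA/2 cells (0.76 ± 0.17, adjusted p = 9.3e-04), at 2.35 and 2.68 CPM against 1.12 and 1.02 CPM, a level close to the filter. Mnd1 rose in DBA/2 cells (0.28 ± 0.11), a call lost with median-of-ratios scaling (0.24) and without any 1 of the 4 DBA/2 libraries (0.26 to 0.29). Psmc3ip, which works with MND1 to help DMC1, fell in the Hif1a line (by 0.56 ± 0.09). Among the crossover genes, Msh5 fell in both lines, by 0.46 ± 0.10 in DBA/2 cells (11.3 and 11.9 CPM at 1%, 15.9 and 16.9 CPM at 20%) and by 0.53 ± 0.10 in the Hif1a line (17.1 and 14.8 CPM at 1%, 23.0 and 23.8 CPM at 20%). Msh4, whose protein pairs with MSH5, rose in DBA/2 cells (0.47 ± 0.13) and fell in the Hif1a line (by 0.32 ± 0.13), and the responses differed by -0.79 ± 0.19 (adjusted p = 0.0020). The fall in the Hif1a line missed the threshold with median-of-ratios scaling (-0.24), without the second library at 1% (-0.23) and without the second at 20% (-0.21), and the rise in DBA/2 cells without the first library at 20% (0.36). Hfm1, a helicase of crossover formation, rose in DBA/2 cells (0.73 ± 0.14), and Tex11, which recruits crossover factors, rose in both (0.44 ± 0.08 in DBA/2 cells, 0.20 ± 0.08 in the Hif1a line). The call of Tex11 in the Hif1a line was lost without the first library at 1% (0.06) or either library at 20% (0.20 and 0.21). Mlh3 and Rnf212 were called in neither. Majin, of the complex that tethers telomeres to the nuclear envelope, rose in DBA/2 cells (0.37 ± 0.15), and Tex14 fell in the Hif1a line (by 0.19 ± 0.05). Both calls were lost with median-of-ratios scaling (0.33 for Majin, -0.10 for Tex14), and that of Majin also without the second library at 1% (0.25) or either library at 20% (0.33 and 0.41).

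**Figure D3:**
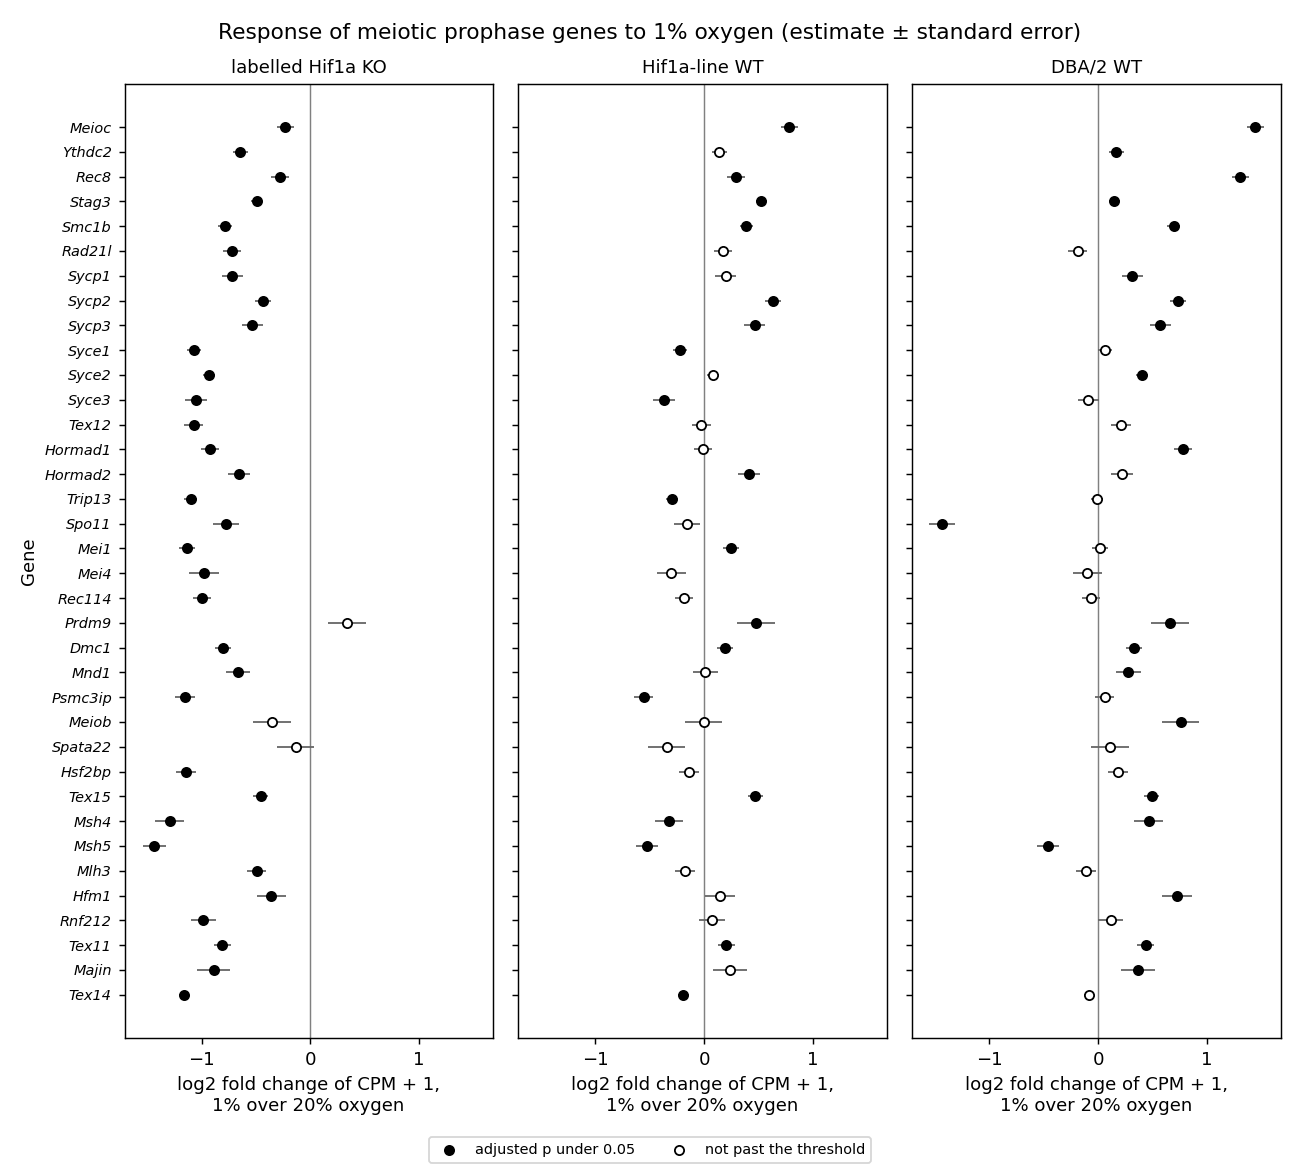
Log2 fold change of CPM + 1 at 1% over 20% oxygen of each of the 36 genes (points, bars are standard errors) in the libraries labelled Hif1a KO, in wild type of the Hif1a line and in DBA/2 wild type, with filled points past the adjusted p of 0.05. The points of the labelled KO lie left of 0 except Prdm9, while Meioc and Rec8 lead to the right and Spo11 to the left in DBA/2 cells. Scaled to the germ cell identity genes, the labelled KO has 15 genes higher and 7 lower, against 73.1% and 6.93% of all genes.

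In the libraries labelled Hif1a KO, 0 of the 36 genes rose and 33 fell at 1% against 20% oxygen on the CPM scale (limma), where 25.2% of all genes rose and 54.7% fell, and 15 were higher and 7 lower on a germ cell scale, with CPM divided by the sum of the 12 germ cell identity genes. At an unadjusted p of 0.05 the rises were 0, and edgeR and DESeq2 each called 1, Prdm9. The median was -0.79, against -0.29 over all genes. With median-of-ratios scaling 1 (Prdm9, 0.64) rose and 26 fell, and 39.9% of all genes rose and 35.4% fell. Summed levels were 1135 ± 61.4 CPM at 1% and 1906 ± 123 CPM at 20%. The 12 germ cell identity genes all fell as well, and 11 of the 12 feeder markers rose. Scaled to the germ cell identity genes, the median of the prophase genes was 0.13 against 0.60 over all genes, of which 73.1% were higher and 6.93% lower.

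The size of the fall varied among the genes. The largest was that of Msh5, with 6.48 and 7.79 CPM at 1% and 19.9 and 21.9 CPM at 20% (log2 fold change -1.43 ± 0.10, adjusted p = 1.0e-10). Msh4 (-1.29 ± 0.13), Tex14 (-1.16 ± 0.05), Psmc3ip (-1.15 ± 0.09), Hsf2bp (-1.14 ± 0.09) and Mei1 (-1.13 ± 0.07) came next. Meioc had 15.5 and 17.6 CPM at 1% and 20.9 and 18.3 CPM at 20% (-0.23 ± 0.08, adjusted p = 0.013), and Rec8 had 17.2 and 20.1 CPM at 1% and 21.6 and 24.1 CPM at 20% (-0.28 ± 0.08, adjusted p = 0.0041). These were the smallest falls called, and both turned sign with median-of-ratios scaling, at 0.12 for Meioc and 0.07 for Rec8. Prdm9, Meiob and Spata22 were the 3 genes not called (adjusted p = 0.080, 0.068 and 0.48), and Prdm9 was at 4.10 and 4.83 CPM at 1% and 4.02 and 2.69 CPM at 20%.

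The difference between the oxygen responses, labelled KO minus wild type of the Hif1a line, was higher for 0 genes and lower for 33 (limma; 0 higher also at an unadjusted p of 0.05 and by edgeR and DESeq2), where 19% of all genes were higher and 39% lower, and on the germ cell scale 2 were higher and 5 lower. On the germ cell scale 72.6% of all genes were higher and 0.802% lower. On the CPM scale the difference had a median of -0.91, against -0.17 over all genes. It was largest for Mei1 (-1.38 ± 0.11), Smc1b (-1.17 ± 0.09) and Majin (-1.13 ± 0.22). With median-of-ratios scaling 0 were higher and 30 lower, against 33.3% and 20.9% of all genes. On the germ cell scale the 5 lower were Mei1 (-0.59), Majin (-0.54), Smc1b (-0.32), Sycp2 (-0.22) and Stag3 (-0.15), and the 2 higher were Prdm9 (0.63) and Mlh3 (0.52).

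The labels were then compared within each oxygen level. At 1% oxygen the libraries labelled Hif1a KO had lower CPM than wild type for 33 of the 36 genes and higher CPM for 0 (limma; 0 also at an unadjusted p of 0.05 and by edgeR and DESeq2), where 28.3% of all genes were higher and 49.1% lower, and on the germ cell scale 4 were higher and 15 lower. On the germ cell scale 80.5% of all genes were higher and 1.39% lower. With median-of-ratios scaling 0 were higher and 32 lower, against 40% and 33.9% of all genes. Mei1 had 8.85 and 8.57 CPM in labelled KO and 29.5 and 29.3 CPM in wild type (-1.65 ± 0.07, adjusted p = 8.0e-13), the largest difference. Sycp3 had 19.8 and 24.4 CPM in labelled KO and 56.2 and 59.2 CPM in wild type (-1.35 ± 0.10). Meioc had 15.5 and 17.6 CPM in labelled KO and 40.9 and 41.4 CPM in wild type (-1.26 ± 0.08, adjusted p = 3.0e-11). Mlh3, a crossover endonuclease subunit, differed least among the called (-0.30 ± 0.09), and Prdm9 was not called, at 4.10 and 4.83 CPM in labelled KO and 5.54 and 5.21 CPM in wild type. All 12 germ cell identity genes were lower and all 12 feeder markers higher in this comparison.

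At 20% oxygen, of the 36 genes 15 were lower and 0 higher in the libraries labelled Hif1a KO (limma; 0 higher also at an unadjusted p of 0.05 and by edgeR and DESeq2), where 12.9% of all genes were higher and 9.55% lower, and on the germ cell scale 0 were higher and 0 lower. On the germ cell scale 35.8% of all genes were higher and 0.532% lower. On the CPM scale the median was -0.21, against -0.03 over all genes. Hfm1 differed most, at 3.52 and 4.43 CPM in labelled KO and 6.80 and 5.07 CPM in wild type (-0.47 ± 0.14, adjusted p = 0.018), followed by Hormad1 (-0.39 ± 0.08) and Sycp3 (-0.35 ± 0.10). The call of Hfm1 was lost without the first labelled KO library (-0.34) or the first wild type library (-0.29), and that of Sycp3 without the second of either (-0.29 each). Feeder markers were higher here too (11 of 12). Without the second labelled KO library or without either wild type library, fewer of the 36 genes and a smaller share of all genes were called lower. The medians were then -0.16 without the second labelled KO library, -0.20 without the first wild type library and -0.22 without the second. Over all genes they were -0.02, -0.03 and -0.03.

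In the Top1mt pair at 1% oxygen, 23 of the 36 genes were lower and 0 higher in the libraries labelled Top1mt KO (limma; 0 higher also at an unadjusted p of 0.05 and by edgeR and DESeq2), where 25.2% of all genes were higher and 33.2% lower, and on the germ cell scale 17 were higher and 4 lower (9 and 11 when the scale rests on 8 of the 12 genes). Of all genes 74.8% were higher and 5.03% lower on the germ cell scale of 12 genes, and 56.1% and 10.5% on that of 8. On the CPM scale the median was -0.36, against -0.04 over all genes. Summed levels were 2079 ± 41.6 CPM in labelled KO and 2745 ± 42.1 CPM in wild type. Sycp2 had 83.8 and 88.9 CPM in labelled KO and 190.2 and 196 CPM in wild type (-1.15 ± 0.07, adjusted p = 1.9e-10). Msh4 had 5.28 and 4.96 CPM in labelled KO and 11.2 and 12.6 CPM in wild type (-1.08 ± 0.13, adjusted p = 9.5e-07), and Spo11 had 2.99 and 2.92 CPM in labelled KO and 6.08 and 7.36 CPM in wild type (-0.96 ± 0.12, adjusted p = 1.2e-06). Scaled to the germ cell identity genes, 4 genes were still lower: Sycp2 (-0.58), Msh4 (-0.58), Spo11 (-0.51) and Rad21l (-0.32). Other genes overlapped between the groups. Meioc had 44.8 and 44.8 CPM in labelled KO and 42.0 and 45.4 CPM in wild type, and Rec8 had 59.6 and 62.8 CPM in labelled KO and 58.6 and 67.0 CPM in wild type. Sycp3, the partner of SYCP2 in the lateral element, had 79.9 and 98.0 CPM in labelled KO and 89.3 and 104 CPM in wild type (adjusted p = 0.30). In this pair 11 of 12 germ cell identity genes were lower and 12 of 12 feeder markers higher.

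**Figure D4:**
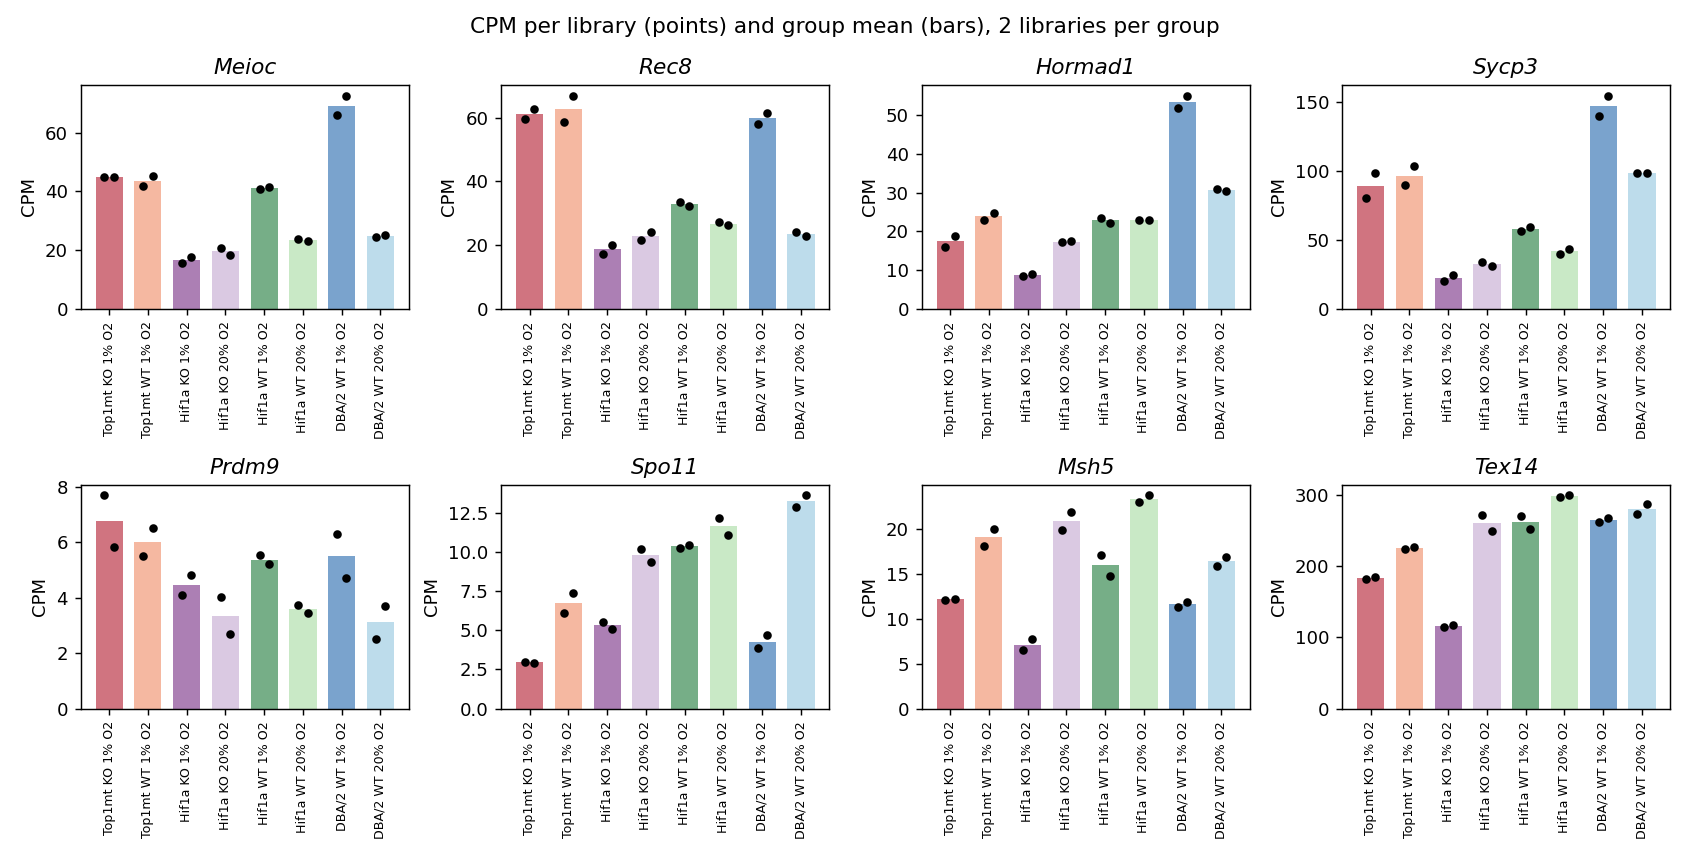
CPM of 8 of the genes in each library (points) with the mean of 2 libraries (bars) for the 8 groups. In DBA/2 cells Meioc and Rec8 are higher at 1% than at 20% oxygen, Spo11 is low in DBA/2 cells at 1% and in labelled Top1mt KO, and Msh5 is lower at 1% than at 20% in all 3 comparisons of oxygen on the CPM scale.

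Wild type cells of the Hif1a line also differed from DBA/2 cells at 20% oxygen. Of the 36 genes 5 were higher and 19 lower in the Hif1a line, where 26.4% of all genes were higher and 22.6% lower, and on the germ cell scale 14 were higher and 5 lower. The 19 include Spata22, which passed the filter on low values only through the DBA/2 libraries, so its call as lower carries no weight. On the germ cell scale 58.9% of all genes were higher and 6.35% lower. The lines differ in strain and may differ in passage and batch, which cannot be told apart. Sycp3 had 39.8 and 43.2 CPM in the Hif1a line and 98.6 and 98.6 CPM in DBA/2 cells (-1.23 ± 0.10, adjusted p = 7.7e-09), and Sycp1 had 84.4 and 81.7 CPM in the Hif1a line and 157 and 173 CPM in DBA/2 cells (-0.98 ± 0.10, adjusted p = 1.5e-07). Rad21l (-0.68 ± 0.08), Tex15 (-0.61 ± 0.07) and Sycp2 (-0.53 ± 0.07) were also lower. The 5 that were higher were Msh5 (0.49 ± 0.10), Psmc3ip (0.33 ± 0.09), Msh4 (0.32 ± 0.13), Hsf2bp (0.23 ± 0.09) and Syce1 (0.16 ± 0.06), and all but Msh5 lost the call without some library. In this comparison 11 of the 12 germ cell identity genes were lower and 9 of the 12 feeder markers higher in the Hif1a line. Without the second Hif1a line library or the second DBA/2 library, fewer of the 36 genes and a smaller share of all genes were called lower. The medians were then -0.16 and -0.13, against 0.03 over all genes in both fits. Without either Hif1a line library or without the first DBA/2 library, fewer of the 36 genes and a smaller share of all genes were called higher.

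Stra8, the switch gene of meiotic entry, was measured at 156 and 166 CPM at 1% and 85.9 and 87.9 CPM at 20% in DBA/2 cells (0.88 ± 0.08, adjusted p = 8.4e-09), while in the Hif1a line wild type had 69.6 and 81.9 CPM at 1% and 66.9 and 68.0 CPM at 20% (adjusted p = 0.080, and called higher with median-of-ratios scaling). Meiosin, listed as Gm4969, rose in both lines, with 24.2 and 26.6 CPM at 1% and 10.6 and 9.56 CPM at 20% in DBA/2 cells (1.26 ± 0.09, adjusted p = 6.9e-10) and 33.3 and 37.0 CPM at 1% and 11.8 and 11.5 CPM at 20% in the Hif1a line (1.52 ± 0.09, adjusted p = 4.4e-11). In labelled Hif1a KO cells Gm4969 was at 10.9 and 11.6 CPM at 1% and 9.04 and 9.64 CPM at 20% (0.24 ± 0.09, adjusted p = 0.019), higher at 1% oxygen. The list of 11 switch genes holds Stra8, Gm4969, Rarg, Rarb, Dmrt1, Dmrtb1, Nanos2, Dazl, Sohlh1, Sohlh2 and Kit. It joins genes of unlike roles, so its counts give no direction of the switch. Over all 11 switch genes 6 rose and 4 fell in DBA/2 cells, 1 rose and 3 fell in the Hif1a line and 1 rose and 8 fell in labelled Hif1a KO, where on the germ cell scale 4 were higher and 2 lower. Of all genes 31.8% rose and 25.5% fell in DBA/2 cells, 18.4% and 34.6% in the Hif1a line and 25.2% and 54.7% in labelled Hif1a KO, against which these counts and those of the next lists are read. Stra8 was higher in labelled Top1mt KO, at 274 and 255 CPM against 204 and 218 CPM in wild type (0.32 ± 0.08, adjusted p = 0.0010), where 0 of the prophase genes were higher on the CPM scale. Of the 11 switch genes 3 were higher and 6 lower there, against 25.2% and 33.2% of all genes. On the germ cell scale 7 were higher and 0 lower, against 74.8% and 5.03% of all genes. On the germ cell scale 73.1% of all genes were higher and 6.93% lower in labelled Hif1a KO. Of a second list of 30 meiotic genes, 29 were tested. In DBA/2 cells 16 of them rose and 4 fell, in the Hif1a line 5 rose and 9 fell, and in labelled Hif1a KO 0 rose and 27 fell, where on the germ cell scale 6 were higher and 6 lower. Hspa2, a chaperone of prophase spermatocytes, rose by 1.05 in DBA/2 cells and 0.68 in the Hif1a line, and Sgo2a, which protects centromeric cohesin, fell by 0.64 in DBA/2 cells. Of 18 genes of the E2F6 and MGA repressor complex, the linked methyltransferases, Uhrf1 and Kdm5c, 7 rose and 6 fell in DBA/2 cells and 5 rose and 9 fell in the Hif1a line. Among them L3mbtl2 and E2f6 fell in both lines (L3mbtl2 by 0.61 and 0.43, E2f6 by 0.23 and 0.36, though E2f6 in DBA/2 cells was at -0.01 on the germ cell scale), whereas Mga and Pcgf6 rose in both (Mga by 0.27 and 0.17, Pcgf6 by 0.52 and 0.33).

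Values were also scaled so that the summed CPM of the 12 germ cell identity genes was equal in all libraries, which sets the prophase genes against other transcripts of the germ cells. This scale was chosen after the data were seen, and it treats as level a list whose members did change between groups. The prophase sum was 0.672 ± 0.00693 of the identity sum in labelled Hif1a KO at 1% oxygen and 0.565 ± 0.0198 at 20%. It was 0.746 ± 0.00947 at 1% and 0.576 ± 0.000654 at 20% in wild type of that line, and 0.844 ± 0.0110 at 1% and 0.564 ± 0.00435 at 20% in DBA/2 cells. In the Top1mt pair it was 0.950 ± 0.0112 in labelled KO and 0.842 ± 0.0197 in wild type. The whole table shifted with this scale, so that of all genes 72.6% were higher and 0.802% lower for the difference by label, 80.5% and 1.39% for labelled Hif1a KO at 1%, 35.8% and 0.532% for labelled Hif1a KO at 20%, 74.8% and 5.03% for labelled Top1mt KO and 58.9% and 6.35% for the Hif1a line over DBA/2. Median log2 fold changes of the prophase genes and of all genes were -0.11 and 0.75 for labelled Hif1a KO at 1%. They were 0.15 and 0.48 for labelled Top1mt KO, and 0.42 and 0.23 for DBA/2 cells at 1% over 20% oxygen. In labelled Hif1a KO Meioc was then higher at 1% (0.73) and Rec8 too (0.68), as were Stag3 (0.50), Sycp2 (0.55), Tex15 (0.54) and Prdm9 (1.2), while Msh5 (-0.53) and Msh4 (-0.46) stayed lower. Between labelled Hif1a KO and wild type at 1% oxygen, Mei1 (-0.65), Majin (-0.57), Hormad1 (-0.31) and Sycp3 (-0.31) were among the 15 lower. The identity list holds Zbtb16, Gfra1, Ret and Id4, genes of self-renewal all 4 of which fell at 1% oxygen in DBA/2 cells and in wild type of the Hif1a line. Without these 4, the other 8 summed to 3603 ± 25.8 CPM at 1% and 3630 ± 95.1 CPM at 20% in DBA/2 cells, and the ratios to their sum were 0.969 ± 0.0114 and 0.749 ± 0.00476. In labelled Hif1a KO the ratios were 0.845 ± 0.00671 at 1% and 0.770 ± 0.0218 at 20%, and in the Top1mt pair they were 1.07 ± 0.0132 in labelled KO and 1.10 ± 0.0206 in wild type. The pair thus lay in the other order, with libraries at 1.06 and 1.08 in labelled KO and 1.08 and 1.11 in wild type.

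**Figure D5:**
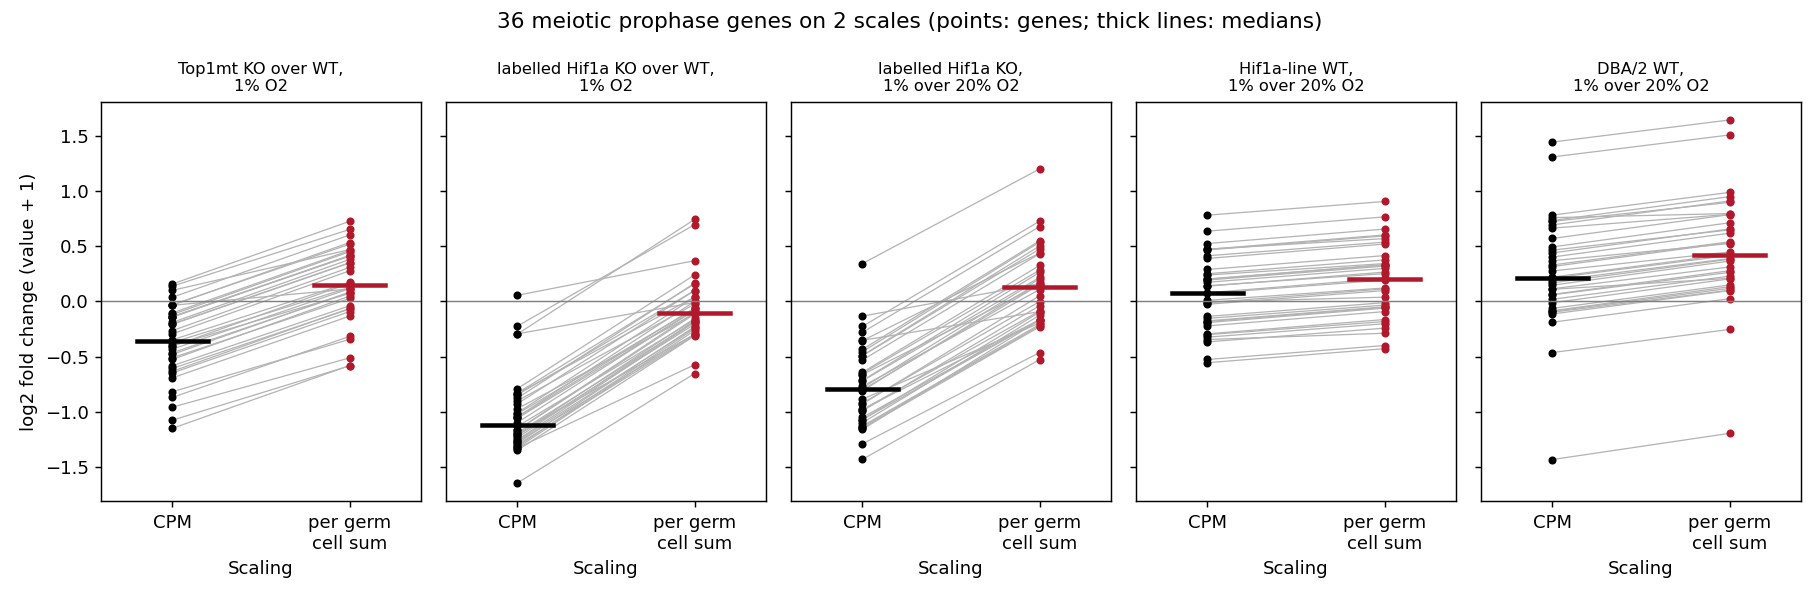
Log2 fold changes of the 36 genes (points, 1 line per gene, thick bars are medians) on the CPM scale and on the germ cell scale, in 5 comparisons. The median of labelled Hif1a KO over wild type at 1% oxygen is -1.12 on the CPM scale and -0.11 on the germ cell scale. Over all genes these medians are -0.21 and 0.75. In DBA/2 cells at 1% over 20% oxygen the medians are 0.22 and 0.42, against 0.04 and 0.23 over all genes.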

How the data were processed

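Poly(A) RNA-seq libraries made with a TruSeq stranded kit were deposited as 1 table of CPM values (reads of a gene scaled to the reads of its library), per the labels' protocols and the file headers. The authors' CPM columns each sum to 1000000. The submitters' processing notes name STAR 2.6.0c, cutadapt 1.16, HTSeq 0.11.2, DESeq2 1.22.2 and build mm10, with no roles. Whole reads were recovered from the CPM steps (100% of values whole within 0.01). The main test was limma (version 3.58.1, R 4.3.3), fitted to log2(CPM + 1) of all 16 libraries with 8 group means and no replicate block. Genes with CPM of at least 1 in 2 libraries were tested (14841), calls were made at an adjusted p of 0.05, and fold changes understate low genes. edgeR 4.0.16 (quasi-likelihood) and DESeq2 1.42.0 on recovered reads, other scalings, pseudocounts, filters, the replicate block and each library left out were alternatives. With 2 libraries a group, an exact permutation test cannot reach 0.05. Limits on counts of 0 (3 reads) cover counting error only. RPKM used exon lengths of GENCODE M21. Tests ran on simulated data first. The members and lists were chosen with earlier results of these data known. Values per library are given by rule for the called members with the largest fold changes and those highest per kilobase; others with such values were chosen after their values were seen. Figures were drawn with matplotlib 3.10.9.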

Additional observations from a re-analysis of the deposited data

Results flagged for a closer look

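The log2 response to 1% oxygen differed between the libraries labelled Hif1a KO and the wild type of the same line by the interaction test in limma for 33 of the 36 genes, all with a lower response in the labelled KO on the CPM scale. The differences, labelled KO response minus wild type response, were Meioc -1.01, Ythdc2 -0.78, Rec8 -0.57, Stag3 -1.02, Smc1b -1.17, Rad21l -0.90, Sycp1 -0.92, Sycp2 -1.07, Sycp3 -1.0, Syce1 -0.85 and Syce2 -1.01. The next were Syce3 -0.69, Tex12 -1.05, Hormad1 -0.91, Hormad2 -1.07, Trip13 -0.81, Spo11 -0.62, Mei1 -1.38, Mei4 -0.68, Rec114 -0.81, Dmc1 -1.0 and Mnd1 -0.67. The others were Psmc3ip -0.59, Hsf2bp -1.0, Tex15 -0.93, Msh4 -0.97, Msh5 -0.91, Mlh3 -0.32, Hfm1 -0.50, Rnf212 -1.06, Tex11 -1.01, Majin -1.13 and Tex14 -0.97. On the germ cell scale 2 of the 36 genes were higher and 5 lower, where 72.6% of all genes were higher and 0.802% lower.

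Between the wild type cells, the response of the Hif1a line minus that of DBA/2 cells differed for 15 genes. It was higher for Stag3 0.38, Rad21l 0.36 and Spo11 1.28. It was lower for Meioc -0.66, Rec8 -1.02, Smc1b -0.30, Syce1 -0.29, Syce2 -0.32, Hormad1 -0.79, Trip13 -0.28, Psmc3ip -0.62, Meiob -0.77, Hsf2bp -0.32, Msh4 -0.79 and Hfm1 -0.58. On the germ cell scale 2 of the 36 genes were higher and 15 lower, where 11.1% of all genes were higher and 37.6% lower. These differences were tested, and their causes were not tested.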

How the results depend on the processing

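Of the called genes, 14 of 21 (DBA/2 oxygen), 12 of 19 (Hif1a wild type oxygen), 25 of 33 (labelled Hif1a KO oxygen), 32 of 33 (label at 1%), 2 of 15 (label at 20%), 18 of 23 (Top1mt label), 10 of 24 (line at 20%), 26 of 33 (difference by label) and 7 of 15 (difference by line) kept the call under every alternative planned. In DBA/2 cells 4 genes fell under median-of-ratios, TMM and edgeR (of all genes 28.2%, 28.7% and 29.9%). In Hif1a wild type 4 fell under these (24.9%, 24.9% and 24.5%) and 3 under DESeq2 (20.6%) and on the germ cell scale of 12 genes (19.3%). In labelled Hif1a KO 1 rose under median-of-ratios, TMM, edgeR and DESeq2 (39.9%, 37.7%, 37.6% and 37.5%). On the germ cell scale of 12 and of 8 genes 15 and 10 were higher there and 7 and 10 lower. Under median-of-ratios, TMM, edgeR and DESeq2 its Meioc was 0.12, 0.074, 0.11 and 0.15 and its Rec8 0.065, 0.022, 0.034 and 0.077. On the scales of 12 and 8 genes the label at 1% gave 4 and 5 higher and 15 and 10 lower, the label at 20% gave 0 and 1 higher and 0 and 0 lower, Top1mt gave 17 and 9 higher and 4 and 11 lower, the line at 20% gave 14 and 15 higher and 5 and 5 lower, and the difference by label gave 2 and 3 higher and 5 and 4 lower. On the scale of 8 genes 82.5% of all genes were higher and 0.957% lower for the label at 1%, and 41.6% and 0.445% at 20%. The shares were 56.1% and 10.5% for Top1mt and 60.1% and 6.11% for the line at 20%. They were 73.5% and 0.681% for the difference by label and 66.9% and 9.97% in labelled Hif1a KO. DESeq2 gave 8 lower for the label at 20%. The line at 20% had 3 higher under TMM, a pseudocount of 0.5 and the replicate block, and 2 with no filter and under DESeq2. The difference by line had 5 higher under edgeR, and 7 lower under median-of-ratios and TMM, 6 under edgeR and 5 under DESeq2. The causes were not tested.

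Leaving out 1 library gave the following medians of the 36 genes, with those of all genes in brackets. They were 0.18 to 0.27 (0.04 to 0.05) in DBA/2 cells and 0.03 to 0.12 (-0.10 to -0.08) in Hif1a wild type. In labelled Hif1a KO they were -0.87 to -0.71 (-0.30 to -0.28). For the label they were -1.17 to -1.06 (-0.22 to -0.20) at 1% and -0.26 to -0.16 (-0.03 to -0.02) at 20%. For Top1mt they were -0.34 to -0.33 (-0.05 to -0.04), and for the line at 20% -0.22 to -0.13 (0.03). The difference by label gave -0.97 to -0.85 (-0.17 to -0.15), and that by line -0.24 to -0.10 (-0.13 to -0.12). In these fits a lone library is assumed to vary like the other groups. Differences between the 2 libraries of a group correlated between -0.064 and 0.153 across the groups compared. With 2 libraries a group this does not settle if same-numbered libraries were paired. The replicate block gave 19 higher and 2 lower in DBA/2 cells and 13 and 7 in Hif1a wild type. It gave 0 and 33 in labelled Hif1a KO, 0 and 33 for the label at 1% and 0 and 17 at 20%. It gave 0 and 24 for Top1mt and 3 and 16 for the line at 20%. For the difference by label it gave 0 and 33, and by line 3 and 11.

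Over all genes edgeR on the recovered reads called 4411 higher and 4432 lower in DBA/2 cells, 3690 and 3633 in Hif1a wild type, 5587 and 5472 in labelled Hif1a KO, 5672 and 5214 for the label at 1%, 2036 and 1129 at 20%, 4296 and 4207 for Top1mt, 4057 and 3492 for the line, 4240 and 3448 for the difference by label and 3252 and 3052 by line, where limma called 2819 and 5784 by label and 2248 and 4582 by line. With median-of-ratios scaling labelled Hif1a KO had 5917 and 5255 (limma on CPM 3747 and 8118), the difference by label 4935 and 3105 and that by line 2951 lower. TMM gave 4558 and 3517 by label and 2886 lower by line. DESeq2 called 3060 lower in Hif1a wild type (limma 5140), 4726 in labelled Hif1a KO, 4464 for the label at 1% (limma 7283), 821 at 20% (limma 1417), 2514 by label and 2314 by line. At this depth Meiob and Spata22 lie near 1 CPM, where a few reads set the value.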
